A study of Mus musculus with 6 samples.

Results

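The colony-stimulating factors are secreted proteins that keep macrophages, granulocytes and microglia alive and make them divide and mature. The 9 genes described here are the ligands Csf1, Csf2, Csf3 and Il34 and the receptor chains Csf1r, Csf2ra, Csf2rb, Csf2rb2 and Csf3r. They were taken by gene name from a deposited count table of 54532 genes, by a rule that uses no measured value. RNA from N9 microglia, an immortalized mouse cell line derived from brain, was sequenced in 6 libraries. The 3 control libraries came from untreated cells, and the other 3 came from cells stimulated for 6 h with lipopolysaccharide (LPS) at 1 µg/ml. LPS is a cell wall component of gram-negative bacteria that activates microglia through Toll-like receptor signalling. All libraries share this single cell line grown in RPMI medium with serum, so they say nothing of other lines or of microglia in the brain.

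Colony-stimulating factor 1 (Csf1, M-CSF) and interleukin 34 (Il34) both bind the receptor tyrosine kinase Csf1r, on which microglia depend for survival in the adult brain. Csf2 (GM-CSF) binds the alpha chain Csf2ra, which signals with the common beta chain Csf2rb through the kinase Jak2 and the transcription factor Stat5. Mice carry an additional beta chain gene, Csf2rb2, whose product pairs with the interleukin 3 receptor alpha chain. Csf3 (G-CSF) binds Csf3r and is the main growth factor of neutrophils.

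At 6 h, Csf3 was the only one of these 9 genes that edgeR called a differentially expressed gene (DEG), for which the adjusted p must be under 0.05 and the log2 fold change beyond 1.5 in either direction. Of all 12296 tested genes 2.65% were DEG. Its counts were between 0 and 3 in control cells and between 114 and 117 in LPS-stimulated cells. Both beta chains rose, Csf2rb 1.41-fold and Csf2rb2 1.60-fold. Csf1 fell by 9.25% from a very high level. Csf1r and Csf2ra were 1.12-fold higher in LPS-stimulated cells, but neither was called when libraries were scaled by their totals instead of by trimmed mean of M-values (TMM) factors. Il34 did not pass the test, Csf3r was under the filter on low counts, and Csf2 had no read in any library.

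Where 3 values of a group are listed below, they are replicates 1 to 3 in order. Total counts per library lay between 16363767 and 17956772, so that 3 counts correspond to between 0.161 and 0.19 CPM, the count scaled to the library total times its factor of the trimmed mean of M-values. TMM factors were 1.03 to 1.04 in control and 0.965 to 0.970 in LPS libraries, and without them the median log2 fold change of all tested genes moved from 0.00 to -0.09. Of 12 markers of microglia and macrophages, 11 exceeded 3 counts in at least 1 library, and their summed level was 1290 to 1358 CPM in control and 1302 to 1359 CPM in LPS libraries. Cd68, Ptprc and Trem2 had over 1000 counts in each library, whereas Cx3cr1 had 33 to 68 counts, P2ry12 3 to 6, Aif1 4 to 9 and Sall1 0 or 1. Marker lists of 3 other cell types had a higher summed level in every LPS library than in any control library. Neutrophil markers (3 of 8 above 3 counts in a library, Ly6g at 0) summed to 3.79 to 4.59 CPM in control and 10.3 to 11.7 CPM in LPS libraries, mostly S100a8. T cell markers (1 of 6, Lck, with Cd3e, Cd3g and Cd8a at 0) summed to 5.70 to 6.65 and 8.83 to 11.3 CPM, and endothelial markers (3 of 5, Cldn5 at 0) to 0.340 to 0.914 and 1.65 to 2.32 CPM. Their part in the results below was not tested. Astrocyte markers (4 of 6 above 3 counts in a library) summed to 95.9 to 98.6 and 95.9 to 104 CPM, and fibroblast markers (6 of 6) to 0.453 to 11.7 and 0.791 to 8.11 CPM. Of 12 hepatocyte markers, 11 exceeded 3 counts in a library and the other was not found by name in the deposited table. They summed to 5.19 to 31.0 CPM in control and 4.81 to 6.63 CPM in LPS libraries. Alb had 2, 155 and 292 counts in control replicates 1 to 3, and a single other marker made up most of the LPS sum. In these bulk libraries, fewer cells that express a gene and less of its RNA per cell cannot be told apart.

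**Figure D1:**
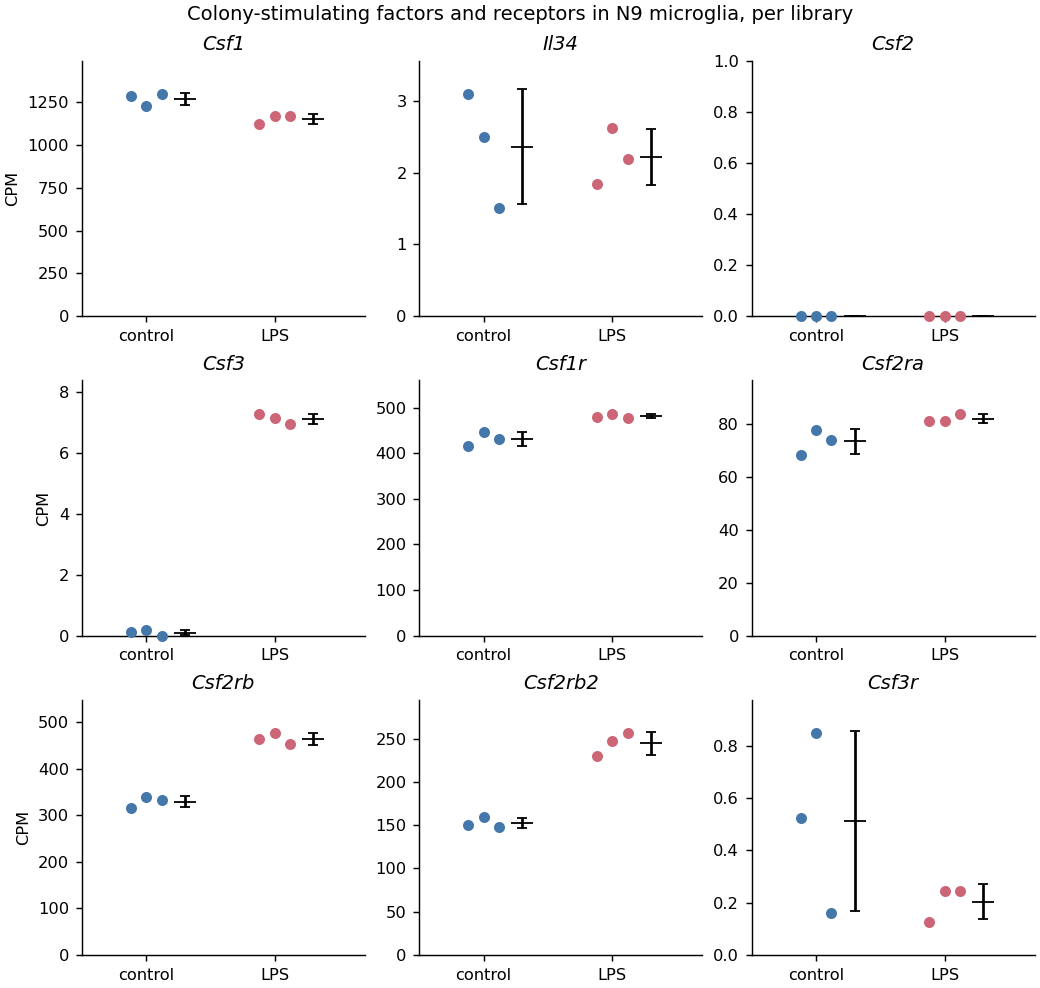
Level of each gene in CPM (TMM-scaled, vertical axes from 0, one scale per panel) in the 3 control and 3 LPS libraries in replicate order; each point is a library, the horizontal mark is the group mean and the bar is 1 SD. The groups are fully separate for Csf3, Csf2rb, Csf2rb2, Csf1, Csf1r and Csf2ra, overlap for Il34 and Csf3r, and Csf2 is at 0 throughout.

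The ligands are shown first with the 30 bases of each 3′ untranslated region (3′UTR) that hold most copies of ATTTA, the core of the AU-rich elements through which many cytokine mRNAs are degraded. The windows come from GENCODE M21 transcripts on GRCm38, read 5′ to 3′ on the strand of the gene, with ATTTA in capitals. They are given because the ligands differ in the number of these elements. The Csf2 window is at chr11:54247329-54247358 (minus strand), the Csf3 window at chr11:98702984-98703013 (plus strand), the Csf1 window at chr3:107741109-107741138 (minus strand) and the Il34 window at chr8:110741845-110741874 (minus strand).
Csf2: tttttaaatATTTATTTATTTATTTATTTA
Csf3: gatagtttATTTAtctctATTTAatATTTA
Csf1: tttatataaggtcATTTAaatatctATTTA
Il34: tggttcctttttctattaaatggccATTTA
The whole 3′UTR of Csf2 holds 9 ATTTA in 317 bases, and 4 copies of the longer word TTATTTATT overlap among them. Only 0.328% of 21010 genes hold as many copies of TTATTTATT, and 7.67% hold any. The Csf3 3′UTR holds 6 ATTTA in 669 bases, Csf1 holds 4 in 2111 and Il34 holds 1 in 605, all without TTATTTATT. This comes to 28.4, 8.97, 1.89 and 1.65 ATTTA per kb for Csf2, Csf3, Csf1 and Il34, beside a median of 1.24 over all genes. The 3′UTRs of Csf2ra, Csf2rb, Csf2rb2 and Csf3r hold none, where 65.2% of genes hold at least 1, and Csf1r holds 3 in 1669 bases. A match of letters describes the sequence and does not show that a factor binds there.

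Csf3 (ENSMUSG00000038067, mm10 chr11:98701263-98703629, plus strand) is the growth factor that drives neutrophil production. The control libraries had 2, 3 and 0 counts, and the LPS libraries had 115, 117 and 114 counts. Every LPS library was far above every control library, and the LPS libraries lay close to each other at 7.12 ± 0.174 CPM (SD, n = 3). All 3 control libraries were at or under 3 counts, so the change is given as a bound. Csf3 was at least 42.2-fold higher with LPS than the level of 3 counts per library, and 41.3-fold to 43.0-fold when each library was left out in turn. The adjusted p of edgeR was 6.85e-09, and the groups were separate in 3 of 3 libraries each. Csf3 passed the filter through its LPS libraries alone. Among all tested genes 2.4% were DEG with a higher and 0.252% with a lower level after LPS. Even after this rise, Csf3 stood at rank 7206 of the tested genes by level per kb of gene length.

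Csf1 (ENSMUSG00000014599, chr3:107741048-107760469, minus strand), the survival factor of macrophages and microglia, was by far the most abundant of the ligands. Its level was 1287, 1230 and 1296 CPM in control cells, and 1122, 1171 and 1168 CPM after stimulation. Every LPS library was below every control library. The mean moved from 1271 ± 36.2 to 1154 ± 27.7 CPM (SD, n = 3 each), a log2 fold change of -0.14 with a standard error of 0.03 and an adjusted p of 0.0037 in edgeR. Per kb of gene length, Csf1 ranked 182 of the tested genes in control cells and 242 in LPS-stimulated cells. The call at adjusted p held in the 16 alternative fits that test for any change, with log2 fold changes between -0.24 and -0.12. The remaining fit, glmTreat, tests for a change beyond the DEG threshold and called Csf3 alone among the 9 genes.

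The Csf1 promoter is shown because Csf1 was the ligand with the highest level and the only one of the 9 genes called lower. The window covers 250 bases before and 50 after the RefSeq start on GRCm38.p6, at chr3:107760420-107760719 (minus strand). Capitals mark matches to a loose form of the kappaB motif bound by NF-kappaB (GGG and CC with any 5 bases between them), searched on both strands.
Csf1: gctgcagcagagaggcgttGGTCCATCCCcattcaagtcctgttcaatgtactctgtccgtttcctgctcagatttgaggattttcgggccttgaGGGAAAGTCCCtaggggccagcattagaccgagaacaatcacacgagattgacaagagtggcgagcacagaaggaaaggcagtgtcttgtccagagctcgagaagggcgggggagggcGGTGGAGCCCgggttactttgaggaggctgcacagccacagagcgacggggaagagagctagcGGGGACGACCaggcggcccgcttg
There are 5 matches, of which a pair overlaps. Of 32851 promoters of this length 50.8% hold at least 1, and the share that holds 5 or more was not computed. The same window holds no match to TGANTCA (AP-1, 7.81% of promoters), to the interferon-stimulated response element (TTTC, any 2 bases and TTTC again, 3.44%), to GAGGAA (the core bound by PU.1, 28.3%), to TATAAA (the core promoter box, 13.6%) or to TTGCNNAA (C/EBP, 10.8%).

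Il34 (ENSMUSG00000031750, chr8:110741829-110805924, minus strand), the other ligand of Csf1r and the one made mainly by neurons in the brain, was scarce. The control libraries had 53, 44 and 28 counts, and the LPS libraries had 29, 43 and 36 counts. The groups overlapped, with 2.36 ± 0.801 CPM in control and 2.22 ± 0.392 CPM in LPS libraries (SD, n = 3 each). The log2 fold change was -0.08 with a 95% interval from -0.70 to 0.53 and an adjusted p of 0.853 in edgeR, so changes of either sign within that interval were not distinguishable at this depth.

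Csf2 (ENSMUSG00000018916, chr11:54247271-54249667, minus strand), the granulocyte-macrophage factor, had 0 counts in all 6 libraries. A count of 0 allows up to 0.161 CPM in the deepest library and up to 0.19 CPM in the shallowest, as counting error alone. Il3 and Il5, the other ligands whose receptors use a Csf2rb family beta chain, were also at 0 in all 6 libraries. Csf2 RNA was therefore not detected at this depth in control or LPS-stimulated cells. Gm12223 overlaps Csf2 on the opposite strand, as Gm15894 and Gm15895 overlap Il34. The use of strand in counting is not given in the sources used here, so reads in these overlaps may have been left out.

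Csf1r (ENSMUSG00000024621, chr18:61105572-61132149, plus strand), the tyrosine kinase receptor of Csf1 and Il34, was the most abundant receptor chain. Its level was 416, 446 and 431 CPM in control cells, and 479, 487 and 478 CPM after stimulation. On this scale the LPS libraries all lay above the control libraries. The mean moved from 431 ± 14.6 to 481 ± 4.83 CPM (SD, n = 3 each), a log2 fold change of 0.16 with a standard error of 0.04 and an adjusted p of 0.00517 in edgeR. Without TMM factors the log2 fold change was 0.060 and the adjusted p 0.235, so this call rests on the scaling. Csf1r overlaps Hmgxb3 on the opposite strand, whose log2 fold change was 0.13 with an adjusted p of 0.0577. The use of strand in counting is not given in the sources used here, so reads where these genes overlap may be assigned to either or left out.

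Csf2ra (ENSMUSG00000059326, chr19:61224402-61228418, minus strand), the chain that binds GM-CSF, gave a change of the same size with less support. Its level was 68.4, 77.8 and 74.1 CPM in control cells, and 81.2, 81.2 and 83.9 CPM after stimulation. The lowest LPS library lay just above the highest control library. The log2 fold change was 0.16 with a standard error of 0.05 and an adjusted p of 0.0326 in edgeR. The call was made in 9 of the 16 alternative fits that test for any change. It was lost without TMM factors, where the log2 fold change was 0.062 and the adjusted p 0.394. It was also lost with DESeq2 (log2 fold change 0.15, adjusted p 0.0937) and on leaving out control replicate 1 (adjusted p 0.154), control replicate 3 (adjusted p 0.0957) or LPS replicate 1, 2 or 3 (adjusted p 0.0524, 0.0719 and 0.107).

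Csf2rb (ENSMUSG00000071713, chr15:78325752-78353847, plus strand), the beta chain shared by the receptors of GM-CSF, interleukin 3 and interleukin 5, rose clearly. Its level was 316, 339 and 332 CPM in control cells, and 463, 476 and 452 CPM after stimulation. The lowest LPS library was well above the highest control library. The mean moved from 329 ± 11.7 to 464 ± 12.2 CPM (SD, n = 3 each), a log2 fold change of 0.49 with a standard error of 0.04 and an adjusted p of 2.35e-07 in edgeR. Without TMM factors the log2 fold change was 0.40, with an adjusted p of 2.58e-06.

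Csf2rb2 (ENSMUSG00000071714, chr15:78282507-78305721, minus strand), the beta chain of the mouse interleukin 3 receptor, rose further. Its level was 150, 159 and 148 CPM in control cells, and 230, 247 and 257 CPM after stimulation. The groups were separate by more than the range within either group. The mean moved from 153 ± 5.97 to 245 ± 13.7 CPM (SD, n = 3 each), a log2 fold change of 0.68 with a standard error of 0.05 and an adjusted p of 6.62e-08 in edgeR. Without TMM factors it was 0.58, with an adjusted p of 4.93e-07. Both beta chains were called in each of the 15 alternative fits that tested them separately for any change, and neither reached the log2 fold change of 1.5 that the DEG definition asks.

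The beta chain genes lie next to each other on chromosome 15 and are near copies, so it matters where reads can tell them apart. Their coding sequences are identical at 2503 of 2628 aligned bases (95.2%), and the longest run without a difference is 242 bases. Of all stretches of 50 bases in the Csf2rb transcript, 18.4% also occur in Csf2rb2, 6.96% of those of 100 bases do and 3.47% of those of 150 bases do. The shares in Csf2rb2 are 19.0%, 7.20% and 3.59%. The 60 coding bases with most differences are shown because they are where the chains are easiest to tell apart. They are coding bases 304 to 363 of Csf2rb and 307 to 366 of Csf2rb2 in GENCODE M21, with the 13 differences in capitals.
Csf2rb: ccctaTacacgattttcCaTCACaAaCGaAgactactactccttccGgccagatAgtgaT
Csf2rb2: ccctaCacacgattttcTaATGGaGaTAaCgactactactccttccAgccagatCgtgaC
The split of shared reads between the genes is uncertain, and how such reads were counted is not given in the sources used here. When the counts of both genes were summed into 1 gene, the log2 fold change was 0.56 with a standard error of 0.04 and an adjusted p of 2.22e-08, so the rise of the beta chains as a pair does not depend on the split.

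The Csf2rb2 promoter is shown as that of the called receptor chain with the largest change, at chr15:78305672-78305971 (minus strand, RefSeq, GRCm38.p6). Capitals mark the 2 matches to the PU.1 core GAGGAA, read here as its reverse complement. PU.1 is the transcription factor, encoded by Spi1, that many myeloid genes depend on.
Csf2rb2: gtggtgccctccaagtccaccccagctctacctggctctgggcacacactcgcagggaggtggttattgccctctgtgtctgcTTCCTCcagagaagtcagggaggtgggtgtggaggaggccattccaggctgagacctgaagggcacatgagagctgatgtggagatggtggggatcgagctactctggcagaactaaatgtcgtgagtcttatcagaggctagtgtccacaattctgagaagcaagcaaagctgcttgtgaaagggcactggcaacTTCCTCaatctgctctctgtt
No match to the other motifs named above, kappaB included, was found in this window. The RefSeq promoter table matched 5 of the 9 genes by symbol, and Csf3, Il34, Csf1r and Csf2rb had no entry. The windows of Csf3r, Csf2 and Csf2ra held 3, 1 and 2 kappaB matches and 1, 0 and 2 PU.1 matches. That of Csf2 also held 1 C/EBP match. The RefSeq start lay 232 bases upstream of the deposited gene start for Csf2, and -109 bases (downstream) for Csf3r. The Csf2 window therefore does not reach the deposited start, and its matches may not be those of the promoter used in these cells.

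Csf3r (ENSMUSG00000028859, chr4:126024550-126044440, plus strand), the G-CSF receptor of neutrophils and their precursors, was barely present. The control libraries had 9, 15 and 3 counts, and the LPS libraries had 2, 4 and 4 counts. The groups overlapped at 0.512 ± 0.344 and 0.205 ± 0.0675 CPM (SD, n = 3 each). Csf3r was under the filter and so had no test in the reported fit. Without the filter edgeR gave a log2 fold change of -1.29 with an adjusted p of 0.282, and DESeq2 gave -1.32 with an adjusted p of 0.362.

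By adjusted p alone, 6 of the 9 genes were called, 5 higher and 1 lower, where 34.3% of all tested genes were called, 18.7% higher and 15.7% lower. Of the 6 called genes, 5 had a mean of at least 1000 counts, and 47.5% of the 4044 tested genes at that depth were called, 29.3% higher and 18.2% lower. Libraries did not overlap between groups for the same 6 genes, beside 45.3% of all tested genes. Without TMM factors 4 of the 9 genes and 39.5% of all tested genes were called. The median log2 fold change was 0.16 over the 7 tested genes and 0.00 over all tested genes, and the median absolute log2 fold change was 0.16 and 0.17. Csf2rb2 had a log2 fold change above 93.2% of tested genes and Csf2rb above 90.5%.

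**Figure D2:**
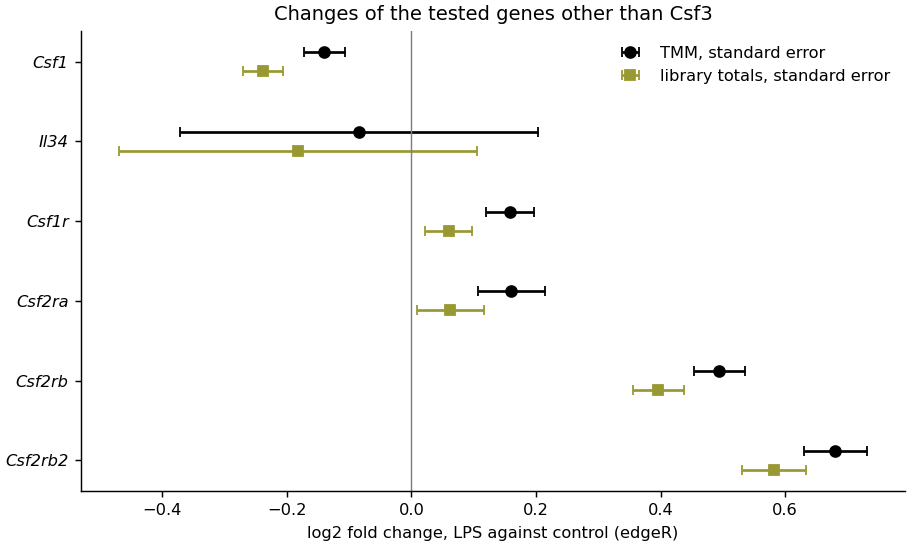
Log2 fold change of LPS against control for the 6 tested genes other than Csf3 (horizontal axis), with its standard error in edgeR, scaled by TMM factors (circles) and by library totals (squares). Csf2rb and Csf2rb2 lie well to the right and Csf1 to the left under both scalings, while Csf1r and Csf2ra move from 0.16 to about 0.06 with library totals.

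Compared per kb of gene length, the level order in control cells was Csf1, Csf1r, Csf2rb, Csf2ra, Csf2rb2, Il34, Csf3r, Csf3 and Csf2. The mean levels were 240.7, 88.3, 45.2, 39.7, 32.2, 1.21, 0.142, 0.0676 and 0 CPM per kb. Neighbours in this order had separate ranges over the 3 libraries, except Csf3r with Csf3 and Csf3 with Csf2. In LPS-stimulated cells the order was Csf1, Csf1r, Csf2rb, Csf2rb2, Csf2ra, Csf3, Il34, Csf3r and Csf2, at 218.4, 98.5, 63.7, 51.6, 44.4, 5.04, 1.13, 0.0567 and 0 CPM per kb. All observed ranges of neighbours were separate there. Csf3r, at 2, 4 and 4 counts, and Csf2, at 0, lie near the floor of 3 counts, so their order is not resolved. The order thus differed in 2 ways: Csf2rb2 stood above Csf2ra, and Csf3 stood above Il34 and Csf3r.

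**Figure D3:**
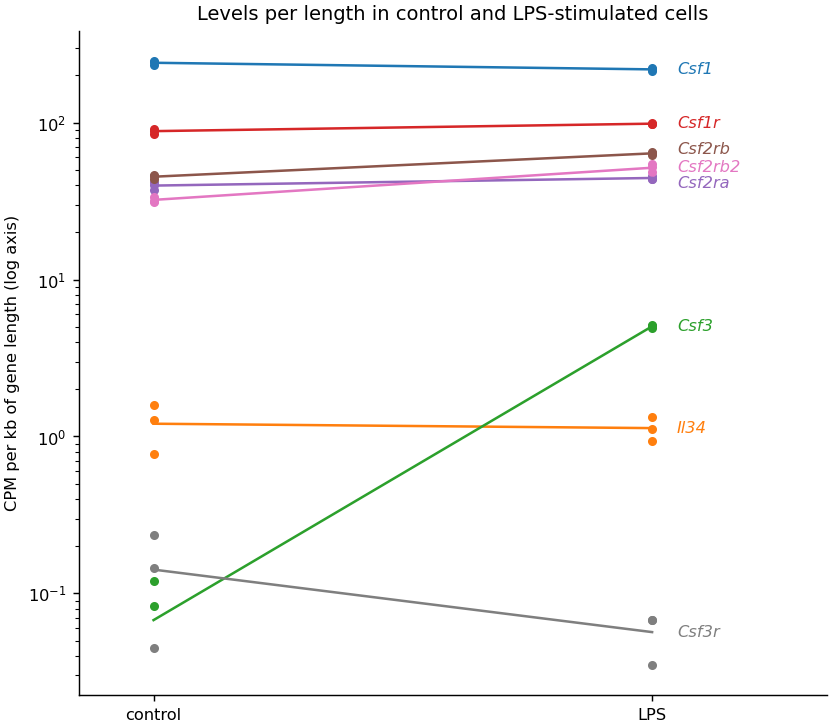
Level of each gene in CPM per kb of gene length (log axis) in control and LPS libraries; points are libraries, lines join the group means, and libraries at 0 (control replicate 3 of Csf3, and Csf2 throughout) cannot be drawn. Csf3 crosses Il34 and Csf3r on its way from 0.0676 to 5.04, Csf2rb2 crosses Csf2ra, and the lines of Csf1 and Csf1r stay on top.

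Ratios within a library do not depend on its scaling, so the receptor chains were also compared with each other. The level per kb of Csf2rb relative to Csf2ra was 1.17, 1.11 and 1.14 in control cells, and 1.45, 1.49 and 1.37 after stimulation. The mean ratio moved from 1.14 ± 0.0332 to 1.44 ± 0.0621 (SD, n = 3 each), 1.26-fold, and the groups were separate. The level of Csf2rb2 relative to Csf2rb was 0.729, 0.722 and 0.686 in control and 0.761, 0.798 and 0.872 in LPS libraries. Its mean moved from 0.712 ± 0.0231 to 0.810 ± 0.0562 (SD, n = 3 each), 1.14-fold, again with separate groups. The ratio of the ligand Csf1 to its receptor Csf1r, chosen after the counts had been seen, was 2.86, 2.55 and 2.78 in control and 2.17, 2.23 and 2.26 in LPS libraries. Its mean went from 2.73 ± 0.159 to 2.22 ± 0.0485 (SD, n = 3 each), and every LPS library was lower. An exact permutation test over libraries (two-sided) gave p = 0.1 for each of the 3 ratios, which is the smallest value that 3 against 3 libraries allow, so none could pass 0.05.

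The sizes of these ratios, not their changes, depend on the length used. With the length of the longest protein-coding transcript in place of the gene length, Csf2rb relative to Csf2ra was 1.69 in control and 2.13 in LPS libraries. Csf2rb2 relative to Csf2rb was 0.479 and 0.546, and Csf1 relative to Csf1r was 3.32 and 2.70. Csf2rb has a gene length of 7277 bases in the deposited table and 4900 bases in its longest protein-coding transcript, while both lengths of Csf2rb2 are 4740 bases.

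**Figure D4:**
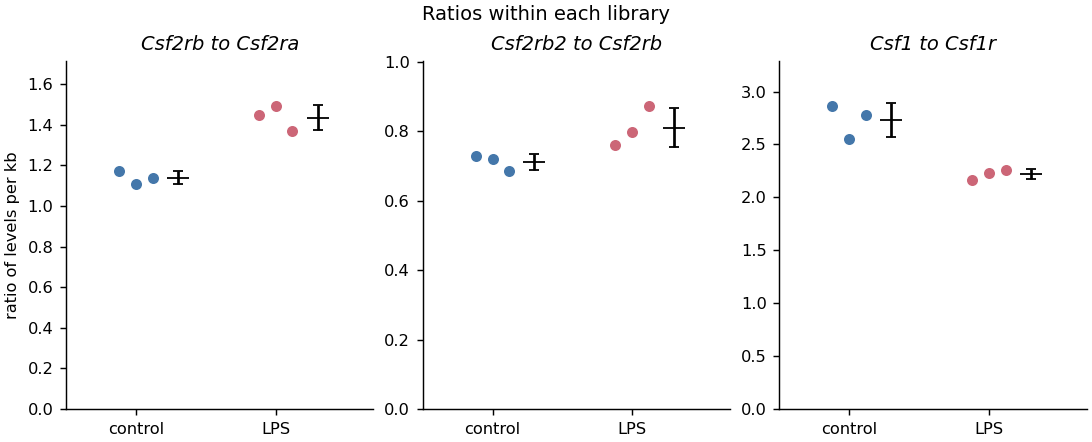
Ratio of levels per kb within each library (vertical axes from 0) for Csf2rb to Csf2ra, Csf2rb2 to Csf2rb and Csf1 to Csf1r; points are libraries in replicate order, the mark is the mean and the bar 1 SD. The LPS libraries lie above the control libraries in the first and second panels and below them in the third.

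The genes around these ligands and receptors were taken from 7 lists of 63 genes, of which 52 were tested. At adjusted p, 22 were higher and 14 lower with LPS (69.2% called), and 7 were DEG, all of them higher. Over all tested genes 34.3% were called and 2.65% were DEG, and 47.5% were called among those with a mean of at least 1000 counts. The median log2 fold change of the 52 list genes was 0.06, beside 0.00 over all tested genes. The lists were chosen with earlier results of these data known, so these shares do not show that list genes respond more than others. The split by direction depends on the scaling, since 17 were higher and 19 lower without TMM factors, where Src and Ets2, at 1.46 and 1.44, were also no longer past the log2 fold change of a DEG.

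Among 12 genes for partner ligands and receptors, 4 were tested and 1 was called, as higher (1 higher and 1 lower without TMM factors). Sdc1, the proteoglycan syndecan 1 that can bind interleukin 34, rose from 156 ± 11.7 to 409.6 ± 8.07 CPM (SD, n = 3 each; log2 fold change 1.39, adjusted p 2.12e-11). Il3ra, the alpha chain with which Csf2rb2 forms the interleukin 3 receptor, was at 7.84 CPM in both groups, with a log2 fold change of 0.00 and a standard error of 0.16. Il5ra was at 0 in all libraries.

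Of 16 signalling genes downstream of these receptors, all were tested, 4 were higher and 5 lower (3 and 8 without TMM factors). Src, a membrane-bound tyrosine kinase, had 325, 346 and 358 counts in control and 863, 960 and 946 in LPS libraries (log2 fold change 1.56, adjusted p 9.11e-11), and was a DEG. Pik3cd, a catalytic subunit of phosphoinositide 3-kinase, fell by 0.63 on the log2 scale (adjusted p 3.46e-08). The most abundant gene of the list per kb was Tyrobp, the adaptor DAP12, at a log2 fold change of -0.11 and an adjusted p of 0.103, or -0.21 and 0.00375 without TMM factors.

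Of 10 genes that restrain these receptors, 8 were tested, 3 were higher and 3 lower (3 and 4 without TMM factors). The suppressors of cytokine signalling Socs3 and Socs1 were both DEG. Socs3 had 675, 684 and 734 counts in control and 2596, 2800 and 2639 in LPS libraries (log2 fold change 2.08, adjusted p 8.21e-14), and Socs1 had 5, 8 and 6 against 30, 27 and 34 (log2 fold change 2.37, adjusted p 0.000128). Ptpn6, the phosphatase SHP-1, fell by 0.55 on the log2 scale (adjusted p 5.20e-08).

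All 3 genes of ectodomain shedding, by which Csf1r is cut from the cell surface, were higher, and only Rhbdf2 was without TMM factors. Adam17, the protease that makes this cut, had a log2 fold change of 0.20 (adjusted p 0.00259), or 0.10 (adjusted p 0.0811) without TMM factors, and Rhbdf2, which brings Adam17 to the surface, had 1.26 (adjusted p 2.56e-10).

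Of 8 transcription factors that act on Csf1r, 3 were higher and 4 lower under both scalings. Ets2 was a DEG (58.9 ± 2.76 to 171 ± 3.98 CPM, SD, n = 3 each; log2 fold change 1.54, adjusted p 3.49e-12). Cebpb, a factor of inflammatory myeloid gene expression and the most abundant of the list per kb, rose by 0.98 on the log2 scale (adjusted p 1.22e-10). Of 6 genes known to respond to colony-stimulating factors, 4 were higher and 1 lower (3 and 1 without TMM factors). Myc had 51, 76 and 55 counts in control and 440, 445 and 398 in LPS libraries (log2 fold change 2.95, adjusted p 2.96e-10). Pim1, a kinase induced through Stat5, rose by 1.26 (adjusted p 3.38e-09), and Mcl1, which protects from apoptosis, by 0.55 (adjusted p 3.87e-09).

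Of 8 factors that bind AU-rich or stem-loop elements in mRNA, 7 were tested, 4 were higher and 1 lower (3 and 1 without TMM factors). Zc3h12a, the RNase regnase-1, which cleaves cytokine mRNAs, had 107, 117 and 142 counts in control and 1316, 1291 and 1334 in LPS libraries (log2 fold change 3.56, adjusted p 5.85e-14). This was the largest change in the 7 lists. Khsrp, the most abundant of the list per kb, fell by 0.13 on the log2 scale (adjusted p 0.0364).

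**Figure D5:**
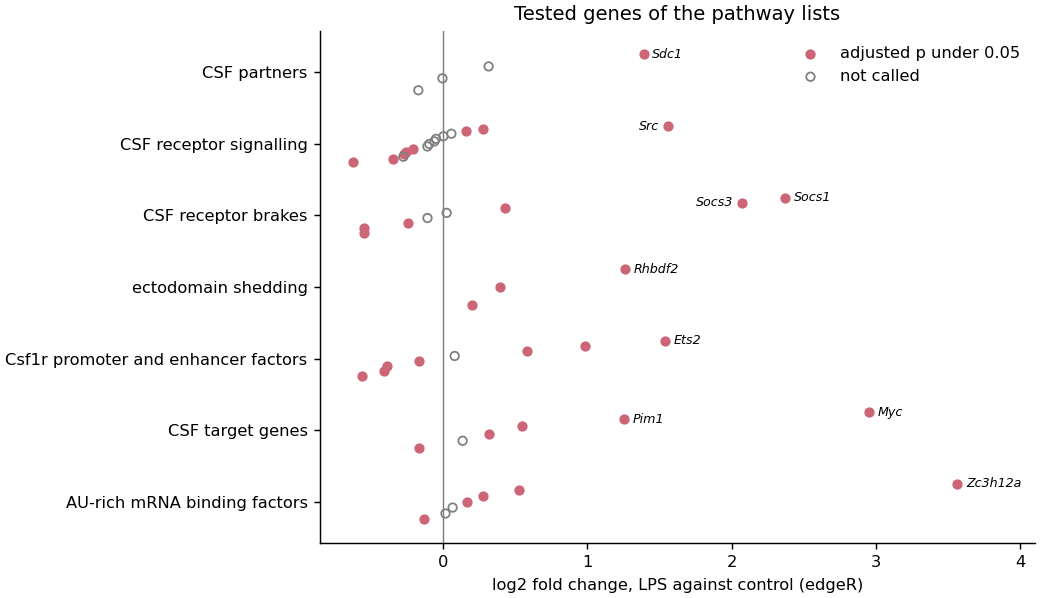
Log2 fold change of LPS against control (TMM-scaled edgeR) for the tested genes of the 7 lists of genes around the colony-stimulating factors (CSF), 1 signalling gene not drawn; filled points were called at an adjusted p under 0.05, open points were not, and drawn genes called beyond 1.2 carry their names. The named genes all lie to the right of 0, while the called genes between -0.63 and 1 lie on both sides.

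The genes next to the 9 on their chromosomes were compared in the same fit. Within 100 kb there were 62 genes, of which 24 were tested, 5 were higher and 4 lower, and none was a DEG. The called share of 37.5% lies near the 34.3% of all tested genes. Without TMM factors 2 were higher and 7 lower. On chromosome 11, Psmd3, a proteasome subunit gene 5284 bases before Csf3, had a log2 fold change of 0.11 (adjusted p 0.0750), and Med24, a Mediator subunit gene 962 bases after it, fell by 0.16 on the log2 scale (adjusted p 0.0359). Ncf4, a subunit gene of the phagocyte NADPH oxidase 19927 bases from Csf2rb2, had a log2 fold change of 0.15 (adjusted p 0.0122), or 0.052 (adjusted p 0.348) without TMM factors. The nearest tested gene to Csf1, Ahcyl1 at 44488 bases, fell by 0.17 on the log2 scale (adjusted p 0.00495). Next to Il34, Sf3b3 at 4315 bases had a log2 fold change of 0.17 (adjusted p 0.0187), or 0.069 (adjusted p 0.306) without TMM factors, and Mtss1l at 429 bases had a log2 fold change of 0.21 (adjusted p 0.716). Next to Csf3r, Mrps15 at 2485 bases had a log2 fold change of 0.02 (adjusted p 0.847). The largest change among these neighbours, named after its value had been seen, was that of Stk40, 59517 bases from Csf3r (log2 fold change 1.38, adjusted p 2.03e-07).

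For the 6 genes with enough counts to compare, the genes whose log2 level followed each most closely over the 6 libraries were also listed, among 10458 genes that averaged 50 counts or more. For a gene that differs between the groups, a high Pearson correlation mostly repeats that difference, and no p is given. Csf3 was most like Ttc39c, Gbp2 and Slc4a7, with 399 genes at a correlation over 0.99. Csf2rb was most like Nckap1l, Slc23a2 and Poldip3, with 256 such genes. Csf2rb2 was most like mt-Rnr1, Ankrd28 and Pofut2, with 101 such genes. Csf1r was most like Anpep, Pfkfb4 and Antxr1, with 17 such genes, and Csf1 was most like Fancf, Hpse and Nptxr, with 6. Csf2ra was most like Syne3, Prr14l and Usp24, and only 1 gene, Syne3, was over 0.99.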

How the data were processed

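RNA-seq libraries of N9 microglia, 3 control and 3 LPS-stimulated, were grouped by the treatment in their labels. The authors deposited raw read counts per gene with a gene length, and no count was normalized. The submitters' processing notes name featureCounts 1.5.0-p3 and mm10. The aligner, the use of strand and the handling of reads that match several genes are not given in the sources used here. The authors' own comparison, with log2 fold changes, p-values and 18 further columns of sample values in all, was not used. Nothing says that replicates were separate cultures, so p-values measure only the spread between these samples, which may be technical. Reads carry no molecular identifiers, so limits from counts cover counting error only.

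Counts were fitted with edgeR 4.0.16 (R 4.3.3), the quasi-likelihood test with TMM factors, filterByExpr by group at a minimum count of 10, a prior count of 0.125, no replicate term, and Benjamini-Hochberg adjustment over 12296 tested genes. A standard error is the log2 fold change divided by the square root of F. CPM are counts scaled to the TMM-adjusted library total. Likeness used log2(CPM + 0.5). Ratios were tested with scipy 1.17.1, and figures drawn with matplotlib 3.10.9. 3′UTRs and transcripts came from GENCODE M21 and promoters from RefSeq (GRCm38.p6). The fits were tested on simulated data.

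The 9 genes and the gene lists were chosen with earlier results of these data known. By rule, the text names the 9 genes, called list genes with an absolute log2 fold change over 0.585, the most abundant gene of each list, the nearest tested neighbours and any neighbouring DEG, and the 3 genes most like each gene with a mean of at least 50 counts. Not every nearest neighbour is described. Values of 1 list gene and 1 marker are not reported here, though the counts of their lists include them. The alternatives were DESeq2 1.42.0, RLE size factors, no filter, a mean of 10 counts, robust dispersion, glmTreat, a prior count of 2, protein-coding genes, a replicate block, summed beta chains, each library left out, other distances, other lengths and library totals; the Csf1 to Csf1r ratio, the other lengths and the library totals were added after the data had been seen.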

Additional observations from a re-analysis of the deposited data

How the results depend on the processing

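Of 237 values computed under an alternative, 224 kept their result, 8 lost their call, 3 counts moved and 2 changed sign. A kept result means the same direction and side of the threshold. For counts it means staying within 1.5 times, and for ratios staying within the pooled SD of the log2 ratios. Some of the 224 could not change, since another length leaves the change of a ratio as it is. Csf1r was not called with library totals (log2 fold change 0.060), and Csf2ra was not called with library totals (0.062) or DESeq2 (0.15). Leaving out each library in turn gave Csf2ra 0.10 to 0.20, with 5 of the 6 fits losing the call, and Il34, never called, -0.34 to 0.14, positive without LPS replicate 1 (0.03) and without control replicate 1 (0.14). DEG among all genes numbered 326, and 183 with glmTreat, which tests against the fold threshold itself. Counts for single lists and neighbours with library totals are not among the 237. There, neighbours within 100 kb went from 5 to 2 higher and from 4 to 7 lower, signalling genes from 5 to 8 lower and shedding genes from 3 to 1 higher, and Adam17, Ncf4 and Sf3b3 lost their calls. Neighbours called higher numbered 2 within 50 kb, and neighbours called lower 7 within 200 kb. With a replicate block, 6 of the 9 genes were called and DEG numbered 329, and it changed no call among the 9 genes. The block raised the genes called at adjusted p from 4221 to 4474. Same-numbered libraries deviated together with correlations of 0.13, 0.05 and 0.00, and differently numbered ones with -0.12 to 0.08. With 3 libraries per group, these values cannot tell whether the numbers pair the samples. Depth limits Csf2, Csf3r and Il34, and the control level of Csf3.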
